A study of Mus musculus with 6 samples.

Results

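Cluster 4 of the diethylstilbestrol (DES) uterine epithelium was made of the 492 cells that the authors' clustering of DES epithelial cells placed in group 4 and that have a column of counts. They were 10.7% of the 4608 clustered DES epithelial cells with counts (exact 95% interval 9.80 to 11.6), which fell into 16 clusters, and 5.07% of the 9701 DES cells with a cell type name. The other 4116 clustered cells served as the comparison, with cluster 6, which had the most RNA of G2 and mitosis genes among the DES clusters, and clusters 8 and 3, whose expression was most like that of cluster 4, given on their own. Every cell came from 1 library, so there are no biological replicates of the cluster, and the clusters were drawn by the authors from the same counts. Differences between clusters are therefore described by their size, with no test.

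CD-1 mice received corn oil (CO) or DES, a synthetic estrogen, at 1 mg/kg/day by injection on days 1 to 5 after birth, and uteri were taken at 12 months. The DES cell library pooled the uteri of 4 mice and the CO cell library those of 2 mice. Spatial RNA was measured in 2 CO and 2 DES uterine sections, each from 1 mouse. In this model, cells from a uterus with cancerous and other epithelium are held in 1 pool, and the mouse that gave a cell is not recorded in the tables used here.

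A cell that commits to divide first switches on genes under the E2F transcription factors, which supply the helicase, nucleotides and fork proteins that copy DNA in S phase. A later wave of genes, switched on in G2 and mitosis, builds the spindle and separates the chromosomes, and Top2a, which untangles DNA, rises between the 2 waves. The uterine epithelium renews itself during the estrous cycle, and its mature cells secrete proteins such as lactotransferrin.

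The cells of cluster 4 were deep. Their median was 51066.5 unique molecular identifiers (UMIs, counted RNA molecules) and 6846.5 genes per cell, against 22283.5 UMIs and 4714 genes in the other clustered cells. Only cluster 6, at a median of 65030.5 UMIs, was deeper, and the other clusters had medians from 6344 to 46953 UMIs. Within cluster 4 the depth ran from 3951 to 152501 UMIs, with the 25th and 75th percentiles at 26694 and 78640.5. The cluster held 16.3% of the UMIs of the clustered cells. Levels below are UMIs summed over the cells of a group, scaled to counts per 1e6 UMIs of that group (CPM), so that deep cells weigh more than shallow ones. Intervals are exact Poisson or binomial 95% intervals, and they cover counting error only.

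The cells were epithelial by their markers. The 8 epithelial genes summed to 3323 CPM against 4062 CPM in the other clustered cells. All 8 had a lower level than in the other cells. Of these, 1 was lower by at least 1.5 times, the tight junction gene Cldn4, at 34.8 CPM against 53.2 CPM. Of the 5896 genes with at least 20 CPM in either group, 4.39% were lower by as much. Without cluster 5, where the list was highest, none was lower by 1.5 times. Epcam, an adhesion protein of epithelial cells, was at 739.7 CPM (interval 729 to 750.1) in cluster 4, within the 724 to 883 CPM of the other clusters. After thinning each cell to 3000 UMIs, Epcam was detected in 87.8% of cluster 4 cells and 90.5% of the other clustered cells, against 9.84% of 3782 DES mesothelial cells thinned in the same way (median depth before thinning 12329 UMIs). Top2a was at 54.9 CPM (52.1 to 57.8) in cluster 4, 26.8 CPM in the other cells, 133 CPM in cluster 6 and 59.7 CPM in cluster 9, so that cluster 4 had rank 3 of 16. At 3000 UMIs Top2a was seen in 76 of 492 cluster 4 cells (15.4%, interval 12.4 to 18.9), in 3.57% of the other cells and in 0.555% of the mesothelial cells. Without thinning the shares were 58.1% in cluster 4 and 16.7% in the other cells, so the order was the same with and without thinning.

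Markers of the other uterine cell types were low. The 7 stromal genes summed to 84.2 CPM in cluster 4, below the 89.2 to 218 CPM of the other 15 clusters, and Dpt, a stromal matrix gene, had 0 UMIs. A count of 0 over this cluster allows a level of up to 0.113 CPM (3 UMIs). The pericyte genes Rgs5, Pdgfrb and Abcc9, the endothelial gene Emcn and the smooth muscle gene Actg2 also had 0 UMIs. The 7 lymphocyte genes summed to 1.24 CPM, the 6 muscle genes to 1.46 CPM and the 5 mesothelial genes to 18.2 CPM. The 5 endothelial genes summed to 4.16 CPM, above the 2.93 CPM of the other cells and with rank 3 of 16. The 5 pericyte genes summed to 10.2 CPM, of which Notch3 held 10.1, against 9.88 CPM in the other cells. Of the 7 myeloid genes, summing to 58.0 CPM, Cd68 held 41.1 CPM and Csf1r 0.600. The 6 basal genes summed to 32.2 CPM against 109 CPM in the other cells, or 69.1 CPM without cluster 5. Before this clustering the authors had taken out DES epithelial cells with more than 1 count of Krt14 and of Trp63. The 13 mitochondrial genes summed to 118698 CPM in cluster 4 and 123150.3 CPM in the other cells. Of the barcodes of cluster 4, 2 also occur in the CO library, and neither is an epithelial cell there.

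Genes of DNA replication led the cluster. Of 5896 genes with at least 20 CPM in cluster 4 or in the other clustered cells, 192 (3.26%) were at least 1.5 times higher in cluster 4 and 259 (4.39%) were at least 1.5 times lower, and the median log2 ratio over all of these genes was -0.02. Among the 192, 94 were at their highest of all 16 clusters in cluster 4. Among the 12 highest ratios were those of Uhrf1, Fam111a, Mcm5, Cenpk, Dlgap1, Gmnn, Dtl, Tk1, Nrm, Ung and Gins2. All of these but Dlgap1 and Tk1 had their highest level of any DES cluster in cluster 4, and 6 of the 12 are on the list of 43 S phase genes. The clusters were formed on these same counts, so the ratios describe the cluster and do not test it.

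Promoter sequences are shown for 3 of the 12, those with a window that holds the letters of an E2F site, and for Top2a, which is on the G2/M list. A second window of Uhrf1, at another gene start, holds no such match and is not shown. Sequences are from RefSeq (GRCm38.p6), cover the 250 bases before the gene start on the gene's own strand, and are given 5′ to 3′. Capitals in the first 3 mark TTTCCCGC, TTTCGCGC, TTTGCCGC or TTTGGCGC on either strand, and capitals in Top2a mark TTTGAA or TTCGAA on either strand, the letters of the CHR element found in genes of G2 and mitosis. In Mcm5, 2 matches on opposite strands overlap.
Uhrf1, chr17:56304063-56304312, plus strand: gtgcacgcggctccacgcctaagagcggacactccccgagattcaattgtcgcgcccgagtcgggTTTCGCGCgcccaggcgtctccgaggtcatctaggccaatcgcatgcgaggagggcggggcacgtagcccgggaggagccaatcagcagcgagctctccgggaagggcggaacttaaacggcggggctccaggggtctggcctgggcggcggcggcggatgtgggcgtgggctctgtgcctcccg
Mcm5, chr8:75109259-75109508, plus strand: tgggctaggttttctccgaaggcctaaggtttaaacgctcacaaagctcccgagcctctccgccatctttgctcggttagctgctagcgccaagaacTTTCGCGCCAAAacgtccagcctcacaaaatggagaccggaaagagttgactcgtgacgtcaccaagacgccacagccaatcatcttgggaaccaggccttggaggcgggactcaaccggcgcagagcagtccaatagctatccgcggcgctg
Dtl, chr1:191575545-191575794, minus strand: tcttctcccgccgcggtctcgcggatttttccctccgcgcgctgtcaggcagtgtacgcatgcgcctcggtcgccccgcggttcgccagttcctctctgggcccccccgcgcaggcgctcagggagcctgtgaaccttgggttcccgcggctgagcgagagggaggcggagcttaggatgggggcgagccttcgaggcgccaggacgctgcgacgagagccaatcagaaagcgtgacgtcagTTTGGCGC
Top2a, chr11:99024190-99024439, minus strand: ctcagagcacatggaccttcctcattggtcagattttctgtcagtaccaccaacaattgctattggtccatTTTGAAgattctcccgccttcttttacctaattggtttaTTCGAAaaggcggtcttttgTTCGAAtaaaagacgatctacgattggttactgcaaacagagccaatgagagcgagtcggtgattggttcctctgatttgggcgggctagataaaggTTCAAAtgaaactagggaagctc

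Windows of 300 bases, 250 before and 50 after a gene start, were found for 31 of the 43 S phase genes, and 13 of these genes (41.9%) hold an E2F match in at least 1 window. Of all 27025 genes with a window 2.60% hold one, and of the 4526 with a window and at least 20 CPM, 5.39%. In the list of 54 G2 and mitosis (G2/M) genes, 3 of 47 with a window (6.38%) hold an E2F match, while 36 of 47 (76.6%) hold a CHR match, against 19.4% of the S phase genes, 21.7% of all genes and 15.9% of those at 20 CPM. Of the 12 highest, 9 have a window, and the 3 shown hold an E2F match. Counted by window this was 3 of 14 (21.4%), against 2.26% of the windows of all genes and 4.36% of those at 20 CPM. Among the 12 lowest, 1 of 8 holds an E2F match, in Lypd8. These are matches of letters and not mapped binding sites.

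Uhrf1, which recruits the maintenance DNA methyltransferase to newly copied DNA, had the highest ratio, with 1218 UMIs in cluster 4 and 1161 in all other cells together. Its level was 45.7 CPM (43.1 to 48.3) against 8.45 CPM (7.97 to 8.95), a ratio of 5.41 (4.98 to 5.86), and no other cluster passed 21.9 CPM. Cluster 6 was at 17.3 CPM, well under cluster 4. Thinned to 3000 UMIs, 16.3% of cluster 4 cells and 1.79% of the other cells had a Uhrf1 UMI.

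The genes named here for the loading and control of the replicative helicase were higher, except Orc4. Orc4, a subunit of the complex that marks origins, was at 27.5 CPM against 28.4 CPM in the other cells. Mcm5, a helicase subunit, was at 49.9 CPM against 12.3 CPM in the other cells and 17.0 CPM in cluster 6. The remaining helicase subunits Mcm2, Mcm3, Mcm4, Mcm6 and Mcm7 had ratios over the other cells from 2.08 (Mcm7) to 3.28 (Mcm3). Gmnn, the inhibitor that stops a second round of loading, was at 46.2 CPM against 12.2 CPM, and Dtl, which targets the loading factor Cdt1 for destruction, was at 31.7 CPM against 8.40 CPM. Cdt1 itself was at 27.2 CPM against 8.59 CPM, and Cdc6, which brings the helicase to origins, at 13.8 CPM against 2.94 CPM. Gins2, part of the active helicase, was at 35.9 CPM against 10.6 CPM. In a list of 11 licensing genes put together after these values were seen, all 11 were highest in cluster 4 of the 16 clusters. Of the 9 that passed the minimum, all 9 were at least 1.5 times higher than in the other cells, beside 3.26% of all genes. The list leaves out Orc4, and a list chosen in this way describes the cluster and does not test it. The sum of the 11 was 482 CPM (473 to 490.1) against 175 CPM in the other cells and 216 CPM in cluster 6.

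The other genes named among the 12 have other roles. Ung, which removes uracil from DNA, was at 55.7 CPM against 16.4 CPM in the other cells, and cluster 6 was lower still at 11.3 CPM. Tk1, thymidine kinase, was at 33.4 CPM against 8.87 CPM, but cluster 6 was higher at 39.6 CPM, and without it the others were at 4.64 CPM. Cluster 6 was also above cluster 4 for the ribonucleotide reductase subunit Rrm2 (19.5 CPM in cluster 4, 25.3 CPM in cluster 6). Fam111a, a protease at replication forks, was at 34.8 CPM against 7.91 CPM, Cenpk, a centromere protein, at 32.5 CPM against 8.19 CPM, and Nrm, a protein of the nuclear membrane, at 26.7 CPM against 7.74 CPM.

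Dlgap1, a scaffold protein known from synapses, stood out among the 12. It was at 59.0 CPM (56.1 to 62.0) in cluster 4 and 15.0 CPM in the other cells, with 102 CPM in cluster 8 and 4.40 CPM in cluster 6. Serpinb7, a serine protease inhibitor, was likewise low in cluster 6, with 405 CPM in cluster 4, 147 CPM in the other cells, 314 CPM in cluster 8, 54.8 CPM in cluster 6 and up to 619 CPM in cluster 14. Cyp2f2, a cytochrome P450, was at 32.1 CPM against 9.95 CPM, with 6.68 CPM in cluster 6. These last 2 genes were picked after their values were seen.

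**Figure D1:**
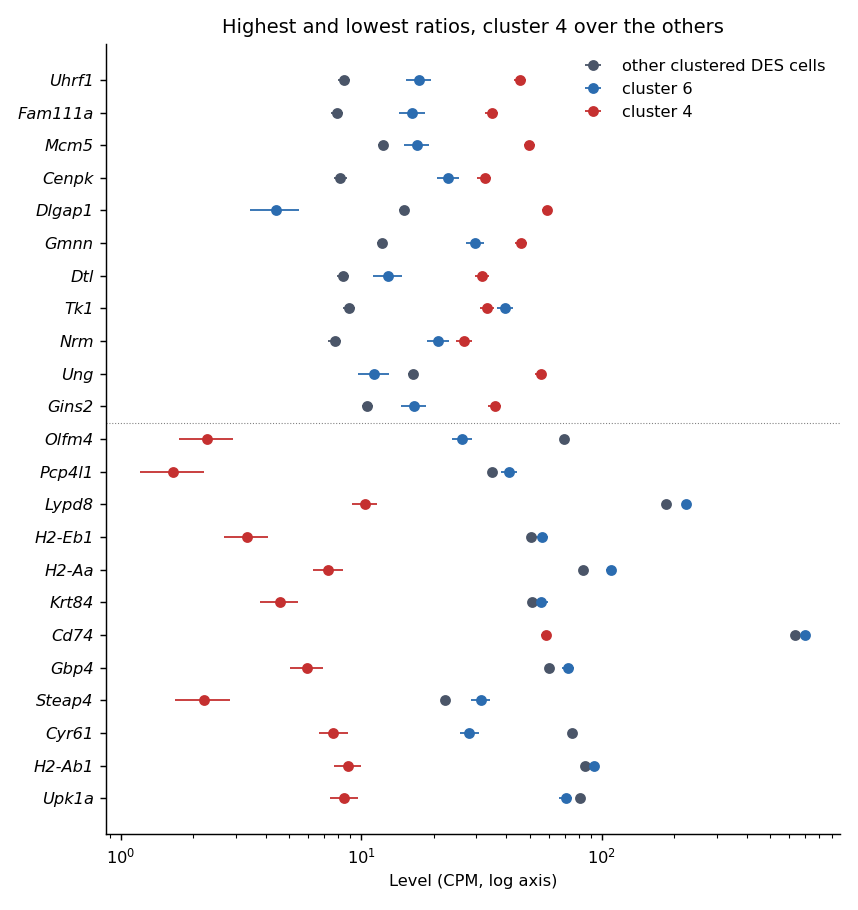
Level (CPM, log axis) of 11 of the 12 genes with the highest and the 12 with the lowest ratio of cluster 4 to the other clustered DES cells, in cluster 4, cluster 6 and the other clustered cells (which include cluster 6), with 95% Poisson intervals. In the upper 11 genes cluster 4 lies to the right of the others, except for Tk1, where cluster 6 is higher, and in the lower 12 it lies far to the left of both, as for Olfm4 at 2.29 CPM against 69.5 CPM.

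The S phase list as a whole was highest in cluster 4 among the 16 clusters. Its 43 genes summed to 1763 CPM (1747 to 1779) in cluster 4, 832 CPM in the other cells and 1146 CPM in cluster 6, and the next highest cluster was 14, at 1203 CPM. Of the 43 genes, 28 reached 20 CPM, of which 23 were at least 1.5 times higher in cluster 4 (3.26% of all genes were), none lower and 5 between. All 43, those under the minimum included, had a higher level than in the other cells, and 33 had their highest level of any cluster. The share of all genes highest in cluster 4 was not counted. Mrpl36, a mitochondrial ribosomal protein on that list, was closest to the other cells, at 125 CPM against 112 CPM, followed among those above the minimum by Cdca7, at 88.6 CPM against 72.8 CPM and 104 CPM in cluster 14. The median log2 ratio over the 28 was 1.33, against -0.02 over all genes.

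The G2/M list had another order. Its 52 genes in the table summed to 1670.3 CPM (1655 to 1686) in cluster 4, 1319 CPM in the other cells and 3452 CPM (3424 to 3480.1) in cluster 6, with cluster 9 second at 1924 CPM. Of the 52 genes 18 reached 20 CPM, 5 were at least 1.5 times higher in cluster 4 than in the other cells and none lower (10 and none without cluster 6), beside 3.26% and 4.39% of all genes. Of the 52 genes, those below the minimum included, 40 were above the other cells, and 3 of the 52 were higher in cluster 4 than in cluster 6. Cdk1, the mitotic kinase, was at 30.5 CPM against 15.8 CPM in the other cells, and cluster 6 was at 85.0 CPM. Among those not above the other cells, Cenpf, a protein of the mitotic centromere, was at 16.7 CPM against 18.4 CPM, Ccnb2, a mitotic cyclin, at 8.63 CPM against 11.2 CPM, and Cdc20, which triggers separation of the chromosomes, at 10.1 CPM against 10.7 CPM. Cluster 6 had 107, 63.5 and 59.0 CPM of the same 3 genes. The ratio of the G2/M sum to the S sum was 0.947 in cluster 4, 3.01 in cluster 6 and 1.59 in the other cells.

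A list of 17 cyclins, E2F factors and inhibitors, put together after the values were seen, was mixed. It summed to 375 CPM in cluster 4, 302 CPM in the other cells and 373 CPM in cluster 6. Of the 5 genes above the minimum 1 was at least 1.5 times higher and 1 lower, beside 3.26% and 4.39% of all genes. Most genes named next are below the minimum of 20 CPM. Ccne1 and Ccne2, the cyclins of the entry into S phase, were at 6.71 and 6.90 CPM in cluster 4, 1.30 and 1.16 CPM in the other cells and 3.43 and 3.13 CPM in cluster 6. E2f1, a main activator of S phase genes, was at 12.7 CPM against 2.55 CPM in the other cells and 4.15 CPM in cluster 6. E2f2 and E2f3 differed less, at 7.46 and 10.4 CPM against 5.44 and 7.73 CPM. Ccna2, a cyclin of S phase and G2, was at 10.9 CPM against 7.51 CPM and 43.6 CPM in cluster 6. Ccnb1, the main mitotic cyclin, was at 7.20 CPM in cluster 4, 7.24 CPM in the other cells and 42.3 CPM in cluster 6. Mki67, a proliferation marker, was at 9.98 CPM in cluster 4, 7.71 CPM in the other cells, 42.1 CPM in cluster 6 and 18.1 CPM in cluster 9. Cdkn2a, an inhibitor of the cyclin D kinases, was lower in cluster 4, at 11.9 CPM against 24.9 CPM, and Ccnd2, a D cyclin, higher, at 87.6 CPM against 45.8 CPM and 15.0 CPM in cluster 6.

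**Figure D2:**
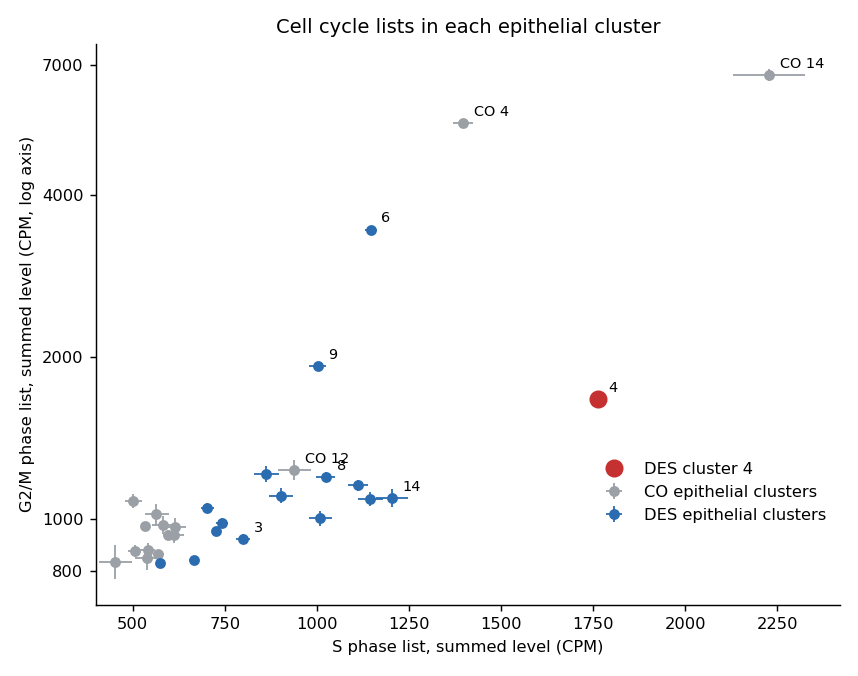
Summed level of the S phase list (horizontal axis, CPM) and of the G2/M phase list (vertical axis, CPM, log) in each of the 16 DES and 15 CO epithelial clusters, 1 point per cluster, with 95% Poisson intervals. DES cluster 4 lies furthest right of the DES clusters at 1763 CPM of the S list, while DES cluster 6 at 3452 CPM and CO clusters 4 and 14 at 5443 and 6686 CPM lie highest on the G2/M axis.

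No CO cluster had the same pairing of levels. The CO clusters were made separately from 1 CO library, so their values are only set side by side. CO clusters 4 and 14, those with the most G2/M RNA, had 1397 and 2227 CPM of the S list and 5443 and 6686 CPM of the G2/M list, so that the G2/M sum was at least 3 times the S sum in both. The CO cluster next in S level, cluster 12, had 939 CPM of the S list and 1232 CPM of the G2/M list, a ratio of 1.31. A ratio under 1, as in DES cluster 4, was also seen in DES clusters 12, 13 and 14 (0.993, 0.951 and 0.909) at lower S levels, and in no CO cluster.

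The lists were not spread evenly over the cells of the cluster. With every cell thinned to 10000 UMIs, 482 of the 492 cells remained, and the S list had a median of 18 UMIs per cell, a 25th percentile of 12 and a 75th of 28. In the remaining clusters without cluster 6 the median was 7 (25th percentile 5, 75th 9), and in clusters 8 and 3 it was 9 and 7. A cell with 20 or more S list UMIs, a limit set after the values were seen, made up 44.2% of cluster 4 (39.7 to 48.8), 16.4% of cluster 6 and 2.55% of the cells of the remaining clusters, and 81 cluster 4 cells lay within 18 to 22 UMIs, so the limit marks a range and not a type. For the G2/M list cluster 4 had a median of 14 UMIs with a 95th percentile of 42, and cluster 6 a median of 27 with a 95th percentile of 118. Of the cluster 4 cells, 58 (12.0%) had 30 or more G2/M UMIs, and 40 of these also had 20 or more of the S list.

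Depth within the cluster moved with these levels. When the cells of cluster 4 were divided into 4 depth classes of 123 cells by their UMIs, the S list was at 3377 CPM in the shallowest class (median 18274 UMIs), then 2073, 1619.9 and 1429 CPM in the deepest (median 92551 UMIs). The G2/M list was at 2187, 1715, 1529 and 1648 CPM. In cells of the remaining clusters without cluster 6, at the same depths, the S list was at 729.8, 763, 787 and 899 CPM from shallow to deep. Cluster 4 was thus above cells of its own depth by 4.63 times in the shallowest class and by 1.59 times in the deepest for the S list, and by 2.36 and 1.41 times for the G2/M list. Cluster 6 was likewise lower in deeper cells, with 7554 CPM of the G2/M list in the shallowest class and 2496 CPM in the deepest. The part of depth in the levels of the cluster was not otherwise tested than by these classes, the thinned values and the cells between the 25th and 75th percentile of depth.

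**Figure D3:**
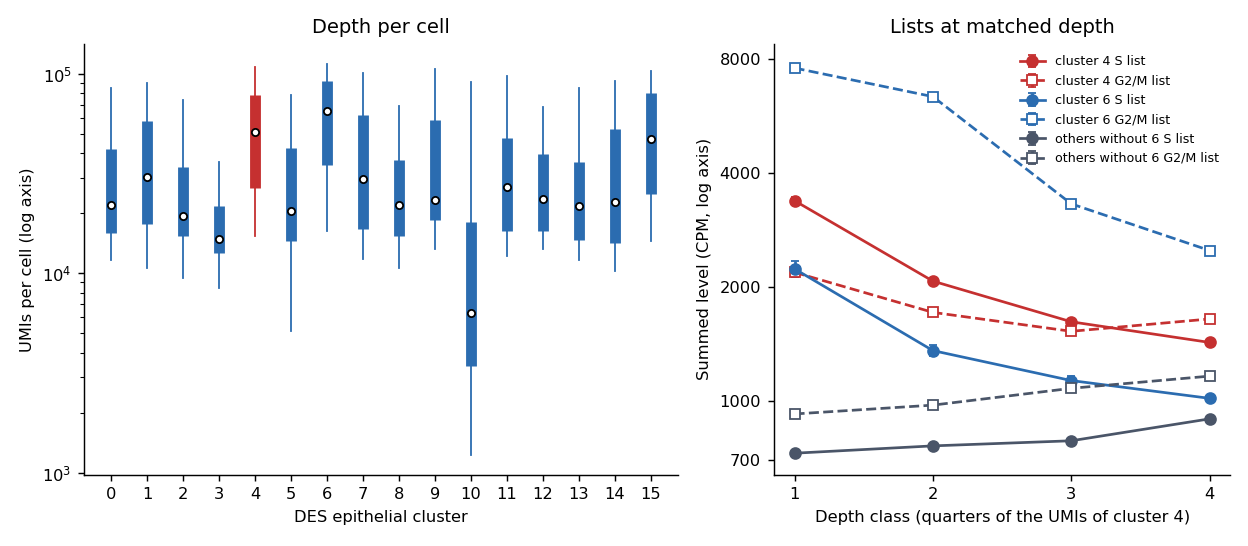
Left, UMIs per cell (log axis) in the 16 DES epithelial clusters, with the median (circle), the 25th to 75th percentile (bar) and the 5th to 95th percentile (line), cluster 4 in red. Right, summed level (CPM, log axis) of the S phase list (filled circles) and G2/M phase list (open squares) with 95% Poisson intervals in 4 depth classes set on the cells of cluster 4, where the S list of cluster 4 goes from 3377 to 1429 CPM and lies above that of cluster 6 and of the others in each class.

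The authors also clustered DES and CO epithelial cells together, and that integrated grouping divided cluster 4. Of its cells, 252 (51.2%) fell in integrated cluster 3, 160 (32.5%) in integrated cluster 7, 43 in integrated cluster 6, 23 in integrated cluster 2 and the remaining 14 in 4 more. The 160 cells of integrated cluster 7 had the most G2/M RNA of the groups of 20 cells or more. They had 2386 CPM of the S list and 2781 CPM of the G2/M list, against 1434 and 1146 CPM in the 252 cells of integrated cluster 3. Top2a was at 135 CPM (127 to 143) in the former and 16.8 CPM (14.8 to 19.0) in the latter, Mki67 at 28.6 and 1.03 CPM, and Ccne1 at 14.5 and 3.09 CPM. The S list remained high outside integrated cluster 7, at 1638 CPM in the 43 cells and 1508 CPM in the 23 cells.

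Integrated cluster 7 also held 184 cells of DES cluster 6 and 12 CO cells, so that the Top2a-rich cells of both DES clusters can be set side by side. The cluster 6 cells there had less of the S list (1350.1 CPM) and more of the G2/M list (4495 CPM) than the cluster 4 cells. They also differed outside the cell cycle. Cd74, the invariant chain of major histocompatibility complex (MHC) class II, was at 85.9 CPM in the cluster 4 cells and 848 CPM in those of cluster 6, and Ltf, lactotransferrin, at 856 and 2647 CPM. Prap1, a secreted acidic protein, was at 369.6 and 1682 CPM, while Serpinb7 was at 215 and 62.4 CPM and Dlgap1 at 59.6 and 5.84 CPM. In the 252 cluster 4 cells of integrated cluster 3, Ltf was at 909 CPM and Dlgap1 at 60.3 CPM, near the 160 cells. Cd74 was at 38.6 CPM there and Prap1 at 514 CPM, and Serpinb7 was higher than in the 160 cells, at 499.7 CPM.

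**Figure D4:**
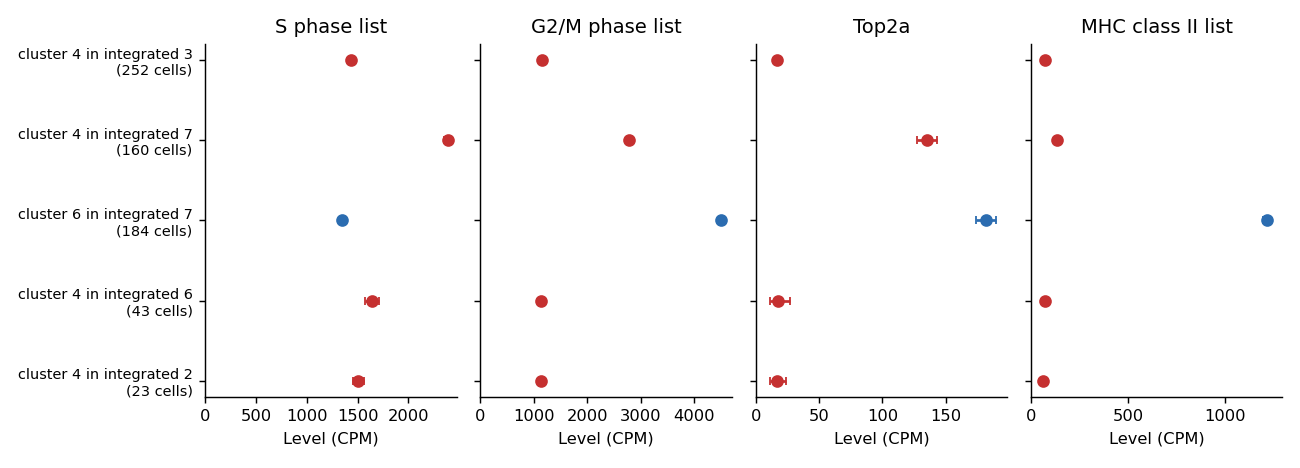
Level (CPM, each axis from 0) of the S phase list, the G2/M phase list, Top2a and the MHC class II list in the cells of DES cluster 4 by integrated cluster (red, groups of 20 cells or more) and in the cells of DES cluster 6 in integrated cluster 7 (blue), with 95% Poisson intervals. The 160 cluster 4 cells in integrated cluster 7 have Top2a at 135 CPM, below the 182 CPM of the cluster 6 cells, and 132 CPM of MHC class II against 1219 CPM.

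Genes low in cluster 4 included secreted and antigen-presenting proteins. The 12 lowest ratios belonged to Olfm4, Pcp4l1, Lypd8, H2-Eb1, H2-Aa, Krt84, Cd74, Gbp4, Steap4, Cyr61, H2-Ab1 and Upk1a. Olfm4, a secreted glycoprotein, was at 2.29 CPM (1.75 to 2.94, 61 UMIs) against 69.5 CPM in the other cells, 30.4 times lower (23.6 to 39.8). Cluster 5, at 685 CPM, held 6075 of the 9555 UMIs of the other cells, and without it the ratio was 11.8. Pcp4l1, a small protein related to PCP4, was at 1.65 CPM against 34.9 CPM, and Lypd8, an antibacterial protein of the gut, at 10.4 CPM against 184 CPM. Without cluster 1, where both were highest, these genes were 13.6 and 8.11 times lower in cluster 4, in place of 21.1 and 17.8. Krt84, a keratin, was at 4.58 CPM against 51.3 CPM, and Upk1a, a membrane protein of urothelium, at 8.51 CPM against 81.0 CPM. Cyr61, a matrix protein, was at 7.65 CPM against 74.8 CPM, but cluster 9 held 7228 of the 10275 UMIs of the other cells, and without it they were at 23.5 CPM, a ratio of 3.07 in place of 9.78. Steap4, a metalloreductase, was at 2.21 CPM against 22.2 CPM, and Gbp4, an interferon-induced GTPase, at 5.93 CPM against 60.0 CPM (37.9 CPM without cluster 1). The nearest clusters were low in the same genes, with Olfm4 at 3.01 CPM in cluster 8 and 5.09 CPM in cluster 3, Lypd8 at 2.17 and 6.86 CPM, Gbp4 at 2.67 and 3.54 CPM and Steap4 at 1.17 and 1.44 CPM. Of the 259 lower genes, 19 had their lowest level of all 16 clusters in cluster 4, and the rest were lower still in at least 1 other cluster.

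MHC class II presents peptides to helper T cells, and its genes were low together. Cd74 was at 58.5 CPM in cluster 4 against 635 CPM in the other cells, with 1628 CPM in cluster 7. The chains H2-Aa, H2-Ab1 and H2-Eb1 were at 7.28, 8.78 and 3.34 CPM against 83.3, 85.1 and 50.7 CPM. Over a list of 7 class II genes, put together after the values were seen, the sum was 97.2 CPM against 905 CPM, a ratio of 0.107, and cluster 4 ranked 11 of 16. Clusters 8 and 3 were as low, at 85.5 and 94.3 CPM, and Cd74 was at 47.4 and 54.8 CPM in them. Cells in which Cd74 was seen at 3000 UMIs were 11.6% of cluster 4 and 43.1% of the other cells. The lymphocyte genes summed to 1.24 CPM in cluster 4 and 1.67 CPM in the other cells, and the myeloid genes to 58.0 and 73.5 CPM.

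Secretory genes under steroid control were lower, while the receptors were level. Ltf was at 909 CPM against 2634 CPM in the other cells, Lcn2, an iron-binding antibacterial protein, at 1127 CPM against 2953 CPM, C3, a complement protein, at 443 CPM against 1029 CPM and Muc1, a mucin, at 170.4 CPM against 282 CPM. The estrogen receptor gene Esr1 was at 225 CPM against 216 CPM and the progesterone receptor gene Pgr at 109 CPM against 94.1 CPM. Of the 10 genes of this list 7 passed the minimum, 4 were at least 1.5 times lower and 3 were between, and without cluster 1, where the list was highest, 3 were lower. Of all genes 4.39% were lower. Clusters 8 and 3 were also low in the list, at 2250.0 and 3463 CPM against 3160.3 CPM in cluster 4. Of the 6 developing gland genes 3 were above the other cells, and of the 5 that passed the minimum 2 were lower by 1.5 times, Prap1, at 544 CPM against 2845 CPM, and Wnt7b, and none higher. The luminal list was lower for 4 of its 5 members above the minimum, its sum at 233 CPM against 412 CPM (3 of the 5 without cluster 5). Cluster 8 was lower still in this list, at 179.6 CPM, and cluster 3 was at 308 CPM.

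Gland, stem cell and Wnt genes were mixed. Of the 6 stem genes 2 passed the minimum, and 1 was higher by 1.5 times (3.26% of all genes were), Gstm7, a glutathione transferase, at 70.0 CPM against 45.2 CPM. Cluster 8 was far higher in Gstm7, at 220.5 CPM, and in the sum of the 6, at 322 CPM against 149.7 CPM in cluster 4. Foxa2, the factor of uterine glands, was at 25.6 CPM against 14.3 CPM, below the 68.9 CPM of cluster 14, while the mature gland genes Spink1, Prss28 and Prss29 had 0 UMIs in cluster 4 and in the other cells. Of the 15 Wnt target genes, 12 were above the other cells, but of the 6 that passed the minimum 2 were at least 1.5 times higher, Ccnd2 and the adhesion receptor Cd44 (21.8 CPM against 10.7 CPM), and 1 was lower, Sox9 (31.9 CPM against 57.2 CPM), beside 3.26% and 4.39% of all genes. Ascl2, a stem cell factor of the intestine, was at 16.5 CPM against 6.57 CPM, and Axin2, a feedback inhibitor of Wnt signaling, at 11.1 CPM against 9.10 CPM. All of Ascl2, Cd44, Ccnd2 and Axin2 were highest in cluster 8, where Ascl2 was at 36.9 CPM. Of the 16 Wnt ligands and receptors, 8 passed the minimum, none was higher and 1 was lower, beside the same shares of all genes. That one was Wnt7b, at 14.9 CPM against 28.5 CPM.

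Aldh1a1, a retinaldehyde dehydrogenase used as a stem cell marker, was rare. It was at 3.64 CPM in cluster 4 and 2.45 CPM in the other cells, with 15.0 CPM in cluster 8. Without thinning 71 of the 492 cells (14.4%) had an Aldh1a1 UMI, against 6.24% of the other cells. Of the 71 cells, 39 also had a Top2a UMI, beside 286 of all 492 cells (58.1%), so the overlap was no larger than that share. Only 3 of the 71 had 3 or more Aldh1a1 UMIs, and all 3 had Top2a. The highest cell had 10. At 3000 UMIs the share was 0.610% in cluster 4 and 1.01% in the other cells. The larger unthinned share was thus not seen at matched depth. The thinned share of cluster 4 rests on few cells, however, and its summed level was above that of the other cells. Lgr5, a Wnt receptor of stem cells, was at 3.34 CPM against 3.38 CPM.

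The 14 genes of ribosome biogenesis summed to 2530.1 CPM against 2007 CPM, 13 of 14 above the other cells, with none past 1.5 times. The median log2 ratio of the 12 above the minimum was 0.32, against -0.02 over all genes. Cluster 8 was higher still in this list, at 2646 CPM, and cluster 3 was at 2234 CPM. Nucleolin (Ncl) was at 444 CPM against 331 CPM and Npm1 at 1296 CPM against 1054 CPM. The 12 glycolysis genes differed little (2504 CPM against 2360.0 CPM). Of the 12 immediate early and heat shock genes, 10 passed the minimum and 8 were lower (4.39% of all genes were), but this rested on cluster 9, at 8183 CPM summed. Without cluster 9 the other cells were at 575 CPM in place of 1003 CPM, and 3 of 7 genes above the minimum were lower by 1.5 times. Fos, a factor induced by stimuli, was at 49.4 CPM in cluster 4 and 209 CPM in the other cells, or 71.5 CPM without cluster 9. Cluster 4 was the lowest of the 16 clusters, at 402 CPM against 432 to 8183 CPM. Genes of this kind are known to respond to dissociation of tissue, and their part in the other differences was not tested. Malat1, a long nuclear RNA, was at 4328 CPM against 7565 CPM.

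The 5 highest ratios over each of the nearest clusters were those of replication and cell cycle genes, while the lower genes were of other kinds. Over the 7132 genes at 20 CPM or more in any cluster, log2(CPM + 10) of cluster 4 correlated with cluster 8 at 0.986, with cluster 3 at 0.984, with cluster 6 at 0.971 and least with cluster 5, at 0.930, as a description across genes of 1 library. Against cluster 8, 186 of 5819 genes (3.20%) were higher and 108 (1.86%) lower. The 5 highest ratios were those of Tk1, the histone gene Hist1h2ap, the PCNA-associated factor Pclaf, Cdk1 and Top2a, and the 5 lowest those of Cxcl15, Igfbp4, Gpx2, Gstm7 and AC167121.2. Pclaf was at 131 CPM in cluster 4 and 21.7 CPM in cluster 8, and the chemokine Cxcl15 at 5.40 and 43.9 CPM. Against cluster 3, 173 of 5797 genes (2.98%) were higher and 65 (1.12%) lower, led by Pclaf, Birc5, Hist1h2ap, Top2a and Cdk1. Top2a was at 3.43 CPM in cluster 3. The lowest 5 there were Yam1, Hba-a1, Hbb-bt, Hbb-bs and Malat1. The hemoglobin gene Hba-a1, which marks RNA from red cells, was at 128 CPM in cluster 4 and 379.9 CPM in cluster 3, where the median depth was 14770 UMIs.

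Against cluster 6, which had the most G2/M RNA, more genes differed than against clusters 8 and 3. Of 5890 genes 238 (4.04%) were higher and 322 (5.47%) lower in cluster 4. The 5 highest ratios were those of Dlgap1, RP23-123N23.3, Serpinb7, Ccnd2 and Ung. The 5 lowest were those of Dynlrb2, Meig1, Pcp4l1, Lypd8 and H2-Eb1. Dynlrb2, a dynein light chain of cilia, and Meig1, needed for sperm formation, had 1 UMI each in cluster 4, against 20.5 and 20.1 CPM in cluster 6. Of the 192 genes higher in cluster 4 than in the other cells, 171 were below cluster 4 in cluster 6 and 21 were above it.

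Whole sections gave the only comparison with replicates. In the 4 uterine sections, with 9117099 to 12506177 UMIs each, 14098 genes were compared between DES and CO with edgeR (quasi-likelihood test, p-values adjusted by Benjamini-Hochberg), and 376 (2.67%) were higher and 371 (2.63%) lower in DES at an adjusted p under 0.05. A section holds muscle, stroma and epithelium, so that fewer cells of a type and less RNA per cell cannot be told apart. The 7 stromal genes summed to 3721 and 4084 CPM in the CO sections and 2319 and 1508 CPM in the DES sections, and the 6 muscle genes to 14758 and 16169 CPM in CO and 3562 and 4036 CPM in DES. The 6 basal genes summed to 4.64 and 226 CPM in CO and 10579 and 6667 CPM in DES, and the 7 myeloid genes to 553 and 1038 CPM in CO and 2712 and 1603 CPM in DES. The part of these cell types in the values that follow was not tested.

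None of the 11 genes named with the highest ratios in cluster 4 passed edgeR's test in whole sections, and DESeq2 called 1 of them, Dlgap1, which edgeR also called without CO section 1 or 2 (log2 fold changes 2.16 and 1.06). Uhrf1 was at 6.96 and 3.53 CPM in the CO sections and 8.67 and 4.76 CPM in the DES sections, a log2 fold change of 0.13 ± 0.49 (SE, edgeR adjusted p = 0.911). Its sections overlapped between the groups. Mcm5 was at 13.8 and 9.43 CPM in CO and 16.9 and 11.7 CPM in DES, and these also overlapped (edgeR adjusted p = 0.906). Dlgap1 came nearest, with 7.52 and 3.63 CPM in CO and 19.4 and 17.5 CPM in DES, both DES sections above both CO sections, and a log2 fold change of 1.51 ± 0.40 (edgeR adjusted p = 0.106). The S phase list summed to 661 and 566 CPM in CO and 832 and 737 CPM in DES, and of its 42 genes tested 1 was higher, the chromatin assembly gene Chaf1b (6.48 and 7.16 CPM in CO, 21.4 and 29.3 CPM in DES, edgeR adjusted p = 0.0381), and none lower, a share near the 2.67% of all genes called higher, with a median log2 fold change of 0.08. The G2/M list summed to 1017 and 700.2 CPM in CO and 1089 and 996 CPM in DES. Its median log2 fold change over 50 genes was -0.81, so the sum and the median had opposite signs. Tubb4b, the largest single part of the sum in each section, was at 249.7 and 151 CPM in CO and 418 and 377 CPM in DES. None of the 50 passed edgeR's test. An unadjusted edgeR p under 0.05 was seen for 19 of the 50, beside 3438 of all 14098 genes. Changes went both ways, as for Cenpa (log2 fold change -1.56) and Hjurp (0.99), and the direction of the 19 was not counted. Genes of 1 list can move together, so these counts do not test the list. Serpinb7, at 32.8 and 7.07 CPM in CO and 431 and 441 CPM in DES, had a log2 fold change of 4.23 ± 0.78 (edgeR adjusted p = 0.0522).

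Of the 12 genes lowest in cluster 4, 3 passed the test, 2 of them higher in DES sections and 1 lower, beside 2.67% and 2.63% of all genes tested. Olfm4 was at 0.400 and 2.18 CPM in the CO sections and 1534 and 1340.1 CPM in the DES sections, a log2 fold change of 9.94 ± 0.77 (edgeR adjusted p = 0.0183). Upk1a was at 0.800 and 0.906 CPM in CO and 193 and 207 CPM in DES, a log2 fold change of 7.65 ± 0.23 (edgeR adjusted p = 0.00793). Pcp4l1 went the other way, at 252 and 169 CPM in CO and 36.4 and 46.2 CPM in DES, a log2 fold change of -2.56 ± 0.30 (edgeR adjusted p = 0.0242). The calls of Olfm4 and Pcp4l1 were lost without either DES section, at log2 fold changes of 9.87 and 9.99, and -2.39 and -2.80. The 4 class II genes among the 12 were higher in both DES sections than in both CO sections without passing edgeR's test. The share of all genes separated in this way was not counted. All 4 passed with DESeq2, which called 800 of 15209 genes higher. H2-Aa and H2-Ab1 also passed edgeR's test with no filter beyond 1 count. Given as sizes only, the log2 fold changes without CO section 1 or 2 were 2.10 and 2.83 for H2-Aa and 1.94 and 2.71 for H2-Ab1. DESeq2 also called Lypd8 (log2 fold change 5.40). Cd74 was at 169.5 and 273 CPM in CO and 872 and 2317 CPM in DES, a log2 fold change of 2.66 ± 0.56 (edgeR adjusted p = 0.0687).

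**Figure D5:**
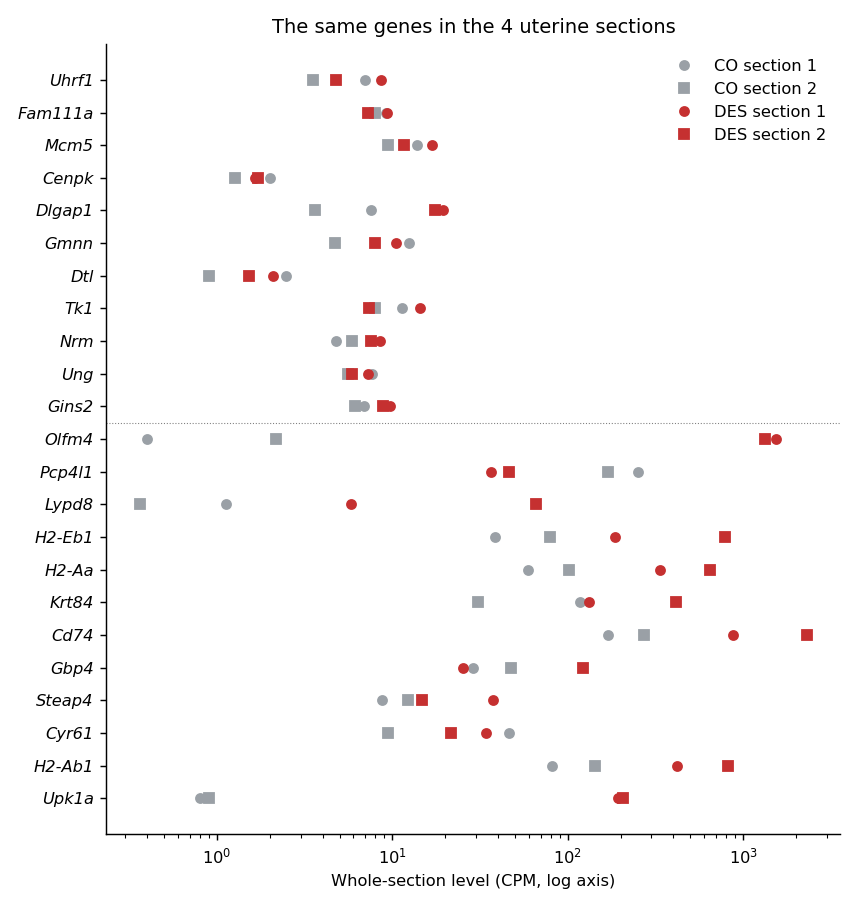
Whole-section level (CPM, log axis) of 11 of the 12 genes highest and the 12 lowest in cluster 4, in the 2 CO sections (grey) and the 2 DES sections (red), 1 point per section. For most of the upper genes the groups overlap, as for Uhrf1, while Olfm4 and Upk1a are higher and Pcp4l1 is lower in both DES sections.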

How the data were processed

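Cells were taken from the pooled uteri by single-cell RNA-seq and sections by Visium. Per the study's methods and processing notes the authors aligned reads to mm10 with Cell Ranger 3.0.1 and Space Ranger 1.2.2, looked for swapped barcodes with DropletUtils, removed doublets with scran, and clustered epithelial cells with Seurat after SCTransform. The deposited tables hold raw UMI counts per gene and cell or spot, with the authors' cluster names. The cell annotation deposited by the authors also gives a sequencing saturation per cell as a fraction, which was not used. Cells lacking counts (350 in the cell annotation) were left out. Between the libraries 180 barcodes are shared.

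The members and gene lists were chosen with earlier results of these data known, and 5 lists and the limits per cell were chosen after the values were seen. UMIs were summed per group into CPM with exact Poisson intervals, with intervals of ratios from the exact conditional binomial. A gene was counted as higher or lower at a ratio of 1.5 with at least 20 CPM in either group. Named genes were the 12 highest and 12 lowest ratios among these, and 5 each way against clusters 6, 8 and 3. Of the 12 highest, 1 is not reported here. Shares of cells were compared after thinning to 3000 UMIs. Section counts were summed per section and tested with edgeR 4.0.16 (TMM, filterByExpr, quasi-likelihood, Benjamini-Hochberg at 0.05), with DESeq2 1.42.0 as an alternative in R 4.3.3. Sections are from different mice, so the p-values measure the spread between 2 sections a group. Cells were handled in Python 3.11.15 with numpy 2.4.6, scipy 1.17.1 and scanpy 1.11.5, whose Scrublet was the alternative doublet caller at an expected rate of 6%. Scripts were tested on simulated data. Promoters were matched by gene name. Other alternatives were the cluster highest in a gene or list left out (chosen after seeing the data), the minimum level, the depth of thinning, deep or abundant items left out, and each section left out.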

Additional observations from a re-analysis of the deposited data

How the results depend on the processing

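The direction of the 23 named cluster ratios was kept in 161 of 161 alternative values, but not all of these could have turned. The genes were picked as the extremes of the same ratio in the same cells. Leaving out Scrublet doublets took no cell from the cluster, and leaving out the highest other cluster can only raise a ratio. The count therefore does not test the directions. Leaving out the cluster highest in the gene, chosen after seeing the data, moved the ratio by over 1.5 times for Tk1, Olfm4, Pcp4l1, Lypd8, Gbp4 and Cyr61. The mean over cells moved it as much for Uhrf1 (log2 ratio 3.18 in place of 2.43), Mcm5 (2.63), Cenpk (2.67), Gmnn (2.57), Dtl (2.55) and Tk1 (2.76), and leaving out integrated cluster 7 for Lypd8 (-5.36) and Gbp4 (-3.96). With a minimum of 10 CPM 296 genes were higher, and with 50 CPM 66 were higher and 139 lower. The log2 ratio of the S list, 1.08, was 1.43 as a mean over cells, 1.13 in cells between the 25th and 75th percentile of depth, 1.16 without cluster 6 and 0.95 without integrated cluster 7, the last chosen after seeing the data. The log2 ratio of the G2/M list, 0.34, was 0.57, 0.23, 0.70 and 0.30 under the same settings. The share of cluster 4 cells with a Top2a UMI, 15.4%, was 22.7% at 5000 UMIs, 33.4% at 10000 and 58.1% unthinned, with 5.61%, 8.61% and 16.7% in the other cells. Scrublet marked 0 of 492 cells of the cluster, 4 of the 4116 other clustered cells (0.0972%) and 3.86% of the library.

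In whole sections DESeq2 called 800 genes higher and 948 lower. Same-numbered sections share only a number, yet a replicate block was also fitted, and it called 298 higher and 229 lower. Across genes, the deviations of CO section 1 and DES section 1 from their group means correlated at -0.025. With 2 sections a group, those numbered 2 give the same value, so it cannot show whether the numbers pair sections. Without 1 section, where the lone sample of a group is assumed to vary like the other group, 3 to 1311 genes were higher and 0 to 1508 lower. Without DES section 1 edgeR called 14 higher and 0 lower, with 1722 genes at an unadjusted p under 0.05, and without DES section 2 it called 3 higher and 0 lower, with 1712 at that p. Under the block the log2 fold changes of Gmnn and Cyr61 turned to 0.03 and 0.14, and H2-Eb1, H2-Aa, Cd74 and H2-Ab1 passed. Without 1 section, signs turned within -0.48 to 0.22 for Cenpk, -0.67 to 0.78 for Gmnn, -0.70 to 0.79 for Dtl, -0.59 to 0.29 for Tk1, -0.46 to 0.03 for Ung, -0.97 to 1.37 for Cyr61, -0.35 to 0.73 for Uhrf1, -0.18 to 0.41 for Mcm5 and -0.84 to 1.51 for Gbp4. The cause of these changes was not tested. The call of Upk1a was kept in every alternative, at 7.55 to 7.72 without 1 section. With 1 pooled library, the spread between mice is not measured for any cell value, and genes under about 20 CPM rest on few molecules per cell.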
